A study of Rattus norvegicus with 6 samples.

Results

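The genes described here encode growth factors of the FGF, EGF, PDGF, IGF and HGF families, their receptors and the proteins that bind or resemble them. They were chosen by symbol: Fgf genes, Fgfr1 to Fgfr4, genes starting with Pdgf (the receptor gene Pdgfrb was not included) or Igf, Erbb2 to Erbb4, neuregulins, Egfr, Areg, Ereg, Hbegf, Btc, Tgfa, Hgf and Met. The rule used symbols and no measured value, but it was chosen with earlier results of these data known. It gave 63 genes on 104 probe sets, out of 14217 named genes and 31042 tested probe sets. Where a gene had several probe sets, the brightest one by mean log2 value over the 6 arrays stands for it.

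RNA was measured on 6 Affymetrix Rat 230 2.0 arrays, each loaded with about 3 µg of total RNA from the inner medulla of male Sprague-Dawley rats, 7 animals in all. Every animal had been given furosemide (1 mg, intraperitoneal) 30 min before decapitation, and the tissue of both groups was dissociated with collagenase B and hyaluronidase (75 min, 37 °C). Cells that sedimented at low speed, mostly inner medullary collecting duct, are the IMCD fraction, and cells recovered from that supernatant are the nonIMCD fraction (3 arrays each). IMCD replicate 1 carries an age label of 6 weeks and the other 5 arrays carry 10 weeks, and the division of the 7 rats over the preparations is not given here. The 2 fractions of a preparation come from the same tissue, but which arrays share a preparation is not given, so the fit used no pairing. Its p-values weigh a difference against the spread between arrays of a fraction.

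Growth factors of these families are released or shed from cells and bind receptor tyrosine kinases on the same cell or on neighbours, which then signal through the Ras to ERK and PI3K to AKT cascades. In the kidney they are known from ureteric bud branching, tubule growth and repair, and from exchange of signals between epithelium, vessels and interstitium. IGF signals are further set by binding proteins that carry the ligands outside the cell, and FGF signals by heparan sulfate carriers that present the ligand to its receptor.

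Differences are IMCD minus nonIMCD on the log2(intensity + 16) scale with the standard error (SE) of the fit, intensities are as deposited, and adjusted p comes from limma with Benjamini-Hochberg adjustment over all 31042 probe sets. Of the 63 genes, 6 were higher and 11 lower in IMCD at an adjusted p under 0.05, and 46 did not pass. The count of lower genes was 6 without nonIMCD replicate 2 and 7 with dim probe sets left out. It was 13 as the mean of probe sets, 14 with a pseudocount of 64 and 15 with an intensity trend. Over all 14217 named genes, 10.0% were higher, 15.7% were lower and 25.8% were called in either direction, so the 27.0% called here lie near the background. The median difference was -0.17 for these genes and -0.09 for all named genes. The arrays of the fractions did not overlap for 27 of the 63 genes, against 48.7% of all named genes. Scaling moved this balance: genes higher in IMCD made up 35.3% of calls here, 50.0% (8 and 8) once arrays were set to equal medians and 42.1% (8 and 11) with quantile-normalized arrays. Over all probe sets the median difference moved from -0.10 to 0.19 and 0.06 under these scalings.

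The median intensity of a tested probe set lay between 269 and 272 on IMCD arrays and between 329 and 340 on nonIMCD arrays. The 3 probe sets of the bacterial control transcript Trpn, with 1.55 to 78.4, served as a guide to the signal of a probe set without target. Of 12 collecting duct principal cell markers 10 were higher in IMCD and 0 were lower, with a summed intensity of 270614 to 289775 in IMCD and 137101 to 179600 in nonIMCD. Lower in IMCD were 13 of 14 markers of leukocytes (sums of 5541 to 7616 in IMCD and 172991 to 188499 in nonIMCD), 12 of 13 of endothelium (18662 to 22812 and 86034 to 91708), 8 of 13 of interstitial cells and pericytes (6047 to 6714 and 37384 to 41340) and 4 of 5 of thin limbs (36644 to 41656 and 87982 to 110454). Thick ascending limb markers had 3 of 7 lower and urothelial markers 1 of 6, with 0 higher in either list. Intercalated cell markers had 2 of 5 higher and 0 lower. No marker was at 0, and in IMCD the means of the leukocyte markers Aif1, C1qb, Itgam and Cd3e and of the interstitial markers Col1a2, Lum and Tagln lay at or under the highest Trpn value. The same held for the urothelial markers Upk1a, Upk1b, Upk2 and Krt5, for Epha7 of thin limbs and for Slc26a4 of intercalated cells. These sums differed between the same fractions that are compared below, and their part in any difference was not tested. In such bulk fractions, fewer cells of a type and less RNA per cell cannot be told apart. The log2 ratio of 3' to 5' control signal, a measure of RNA integrity, averaged 0.69 ± 0.03 for IMCD against 1.35 ± 0.14 for nonIMCD (SD, n = 3), and its part in the differences was not tested either.

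**Figure D1:**
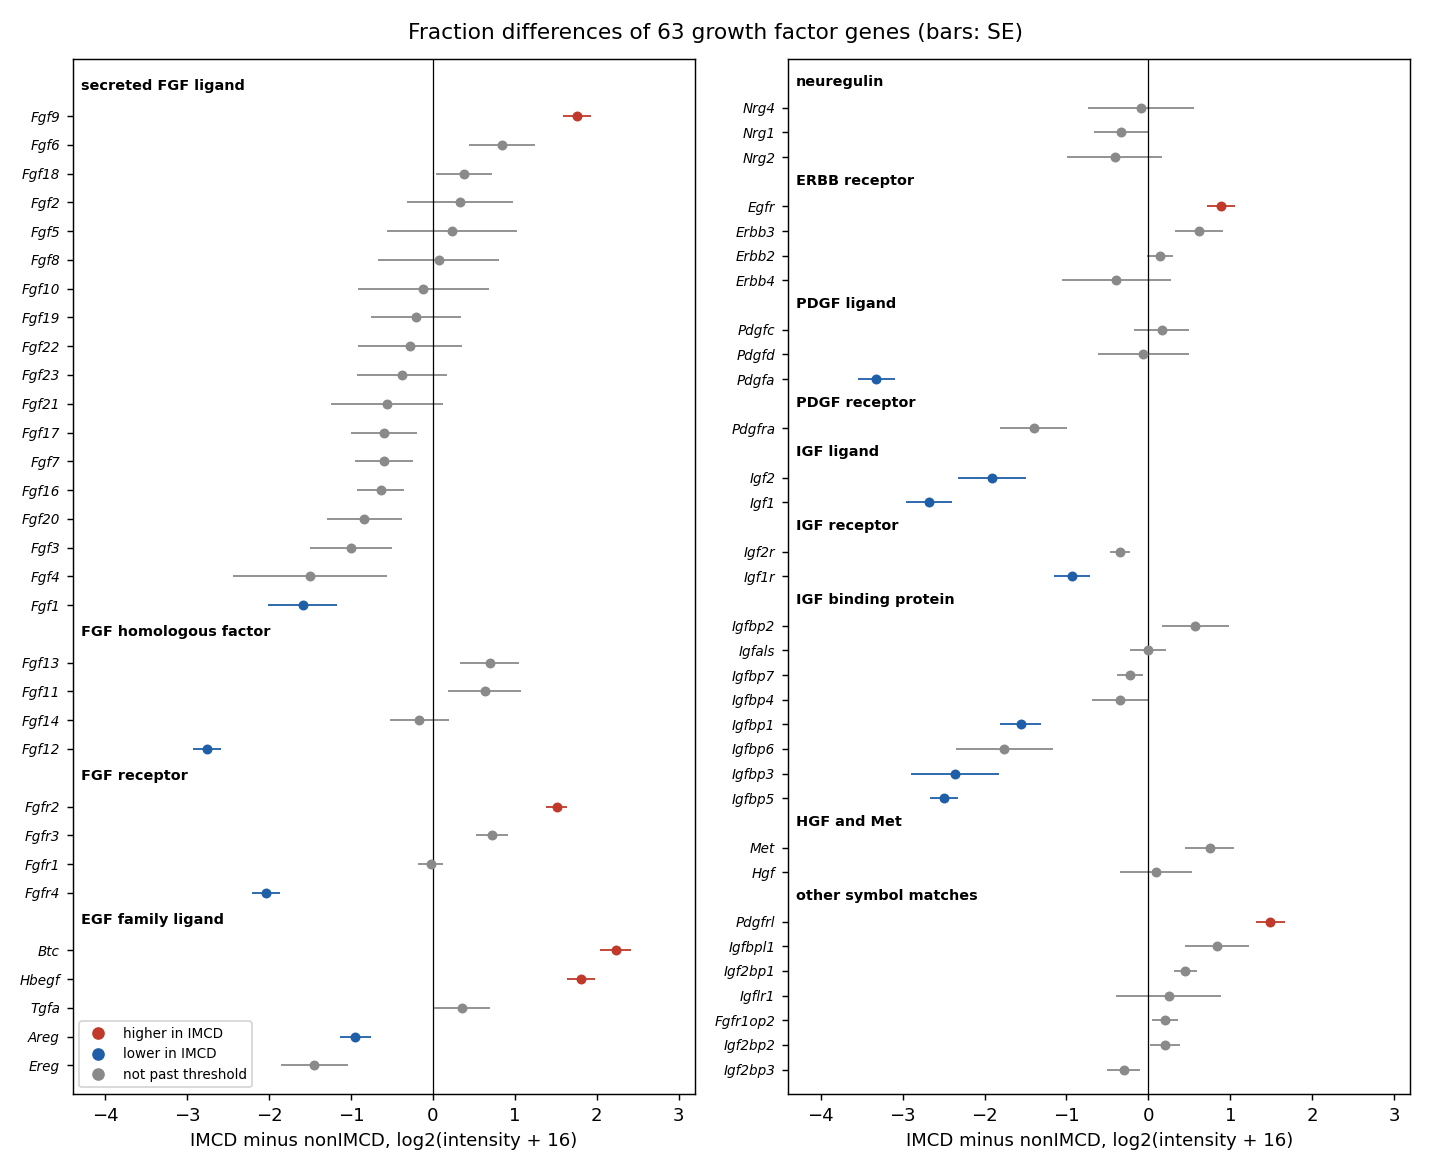
Difference between the fractions (IMCD minus nonIMCD, log2(intensity + 16), horizontal axis) for each of the 63 genes, grouped by role; points are estimates and bars are SE. The 6 genes higher in IMCD reach 2.23 (Btc) and the 11 lower genes reach -3.32 (Pdgfa), while most secreted FGF ligands have wide bars around 0.

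Among ligands of the EGF receptor, Hbegf and Btc were higher in IMCD and Areg was lower, while Tgfa and Ereg did not pass. Hbegf encodes a membrane-anchored ligand that is shed by proteases and binds Egfr and Erbb4. Its intensities were 11581, 9147 and 8233 on IMCD replicates 1, 2 and 3, and 2896, 2565 and 2707 on the nonIMCD arrays. Every IMCD array was well above every nonIMCD array, and the means differed 3.55-fold (1.81 ± 0.17, SE, adjusted p = 0.0015). Btc, betacellulin, is a ligand of the same receptors. It read 1584, 1448 and 1462 in IMCD and 318, 238 and 375 in nonIMCD. These groups were as cleanly separated, with a 4.82-fold ratio of means (2.23 ± 0.19, SE, adjusted p = 0.00114).

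Areg, amphiregulin, went the other way. It had 562, 402 and 567 in IMCD and 1135, 943 and 902 in nonIMCD, without overlap. The difference was -0.95 ± 0.19 (SE, adjusted p = 0.0188). The call was lost without nonIMCD replicate 1 (-0.85, adjusted p = 0.0632), without nonIMCD replicate 2 (-0.98, adjusted p = 0.0531) and with each array centred on its median (-0.66, adjusted p = 0.0561). Ereg, epiregulin, is a related ligand and was dim throughout: 76.8, 34.0 and 16 in IMCD and 155, 97.1 and 142 in nonIMCD. All its IMCD arrays lay under all its nonIMCD arrays, yet the difference of -1.45 ± 0.41 did not pass (SE, adjusted p = 0.0561). It passed without IMCD replicate 1 (-1.86, adjusted p = 0.021), with a pseudocount of 64 (-0.91, adjusted p = 0.0304) and with an intensity trend (adjusted p = 0.0409). Tgfa, which encodes transforming growth factor alpha, had 2373, 1947 and 1685 in IMCD and a wide range of 1472, 2523 and 1001 in nonIMCD. Its arrays overlapped (0.35 ± 0.35, SE, adjusted p = 0.534). Egf itself was not among the genes chosen by symbol. Named after its values were seen, it read 554, 1513 and 2110 in IMCD and 1570, 2628 and 3201 in nonIMCD, with overlap, and did not pass (-0.95 ± 0.55, SE, adjusted p = 0.274). Egf is also among the 7 thick ascending limb markers. Their summed intensities were 2043, 5235 and 6624 on IMCD replicates 1, 2 and 3 and 7208 to 10938 in nonIMCD. The part of such cells in the Egf values was not tested.

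Btc and Areg lie on the same chromosome with start sites 273 kb apart in RefSeq (build GRCr8), so a pair of neighbouring ligand genes was called in opposite directions. The 250 bases upstream of their starts are shown because they allow the neighbours to be compared, with motif matches in capitals. The motifs searched were the TATA box with the letters TATAAA, the GC box bound by Sp1-like factors with the letters GGGCGG, the site of AP-1 factors with the letters TGANTCA, and the site of GATA factors with the letters AGATAA. Both strands were read, and overlapping matches were allowed. They are chr14:16992418-16992667 (plus strand) for Btc and chr14:17265642-17265891 (minus strand) for Areg.
Btc: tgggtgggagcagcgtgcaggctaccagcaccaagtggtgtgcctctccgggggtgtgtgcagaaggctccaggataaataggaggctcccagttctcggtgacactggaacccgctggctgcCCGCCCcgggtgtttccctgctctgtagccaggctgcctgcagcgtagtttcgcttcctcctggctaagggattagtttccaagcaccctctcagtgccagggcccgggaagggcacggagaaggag
Areg: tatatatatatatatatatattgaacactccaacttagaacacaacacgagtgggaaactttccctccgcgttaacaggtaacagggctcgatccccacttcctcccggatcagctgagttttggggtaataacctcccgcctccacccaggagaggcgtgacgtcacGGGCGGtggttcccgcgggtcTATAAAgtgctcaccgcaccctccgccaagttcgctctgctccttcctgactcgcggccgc
Both windows held a GC box, the Btc match reading on the opposite strand, and the Areg window also held a TATA box. A GC box was found in 30.5% of all 33469 upstream windows and a TATA box in 12.9%.

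Of the 4 ERBB receptor genes, Egfr was higher in IMCD and Erbb2, Erbb3 and Erbb4 did not pass. Egfr, the receptor for all the ligands above, read 3039, 2779 and 2508 in IMCD and 1603, 1681 and 1228 in nonIMCD. The groups did not overlap, and the ratio of means was 1.85 (0.89 ± 0.17, SE, adjusted p = 0.0172). A second bright Egfr probe set gave 0.91 ± 0.16 (SE, adjusted p = 0.0117), and a dim one gave 0.94 ± 0.59 (SE, adjusted p = 0.316). The brightest Egfr probe set did not pass without IMCD replicate 1 (0.82, adjusted p = 0.0631) or IMCD replicate 2 (0.88, adjusted p = 0.0558). Erbb2, the partner receptor that binds no ligand of its own, had 1084, 1492 and 1330 in IMCD and 1213, 1149 and 1161 in nonIMCD. The IMCD arrays spanned the nonIMCD range (0.14 ± 0.16, SE, adjusted p = 0.59). Erbb3, a neuregulin receptor, had 545, 639 and 449 in IMCD and 224, 433 and 419 in nonIMCD. No array overlapped, but the nonIMCD spread was wide (0.62 ± 0.29, SE, adjusted p = 0.192). Erbb4 stayed between 5.13 and 70.4 on all arrays, within the Trpn range.

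The neuregulins, ligands of Erbb3 and Erbb4, gave 0 calls among 3 genes measured by limma on the brightest probe sets. Nrg1 (8 probe sets), Nrg2 and Nrg4 all lay under the array median. A dimmer Nrg2 probe set read 14.8, 8.15 and 19.8 in IMCD and 118, 148 and 102 in nonIMCD. This probe set was lower (-2.20 ± 0.21, SE, adjusted p = 0.00162) with IMCD signal in the Trpn range, while the brightest Nrg2 probe set gave -0.41 ± 0.58 with overlapping arrays (SE, adjusted p = 0.665). As the mean of its probe sets Nrg2 was lower (-1.01, adjusted p = 0.0418).

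**Figure D2:**
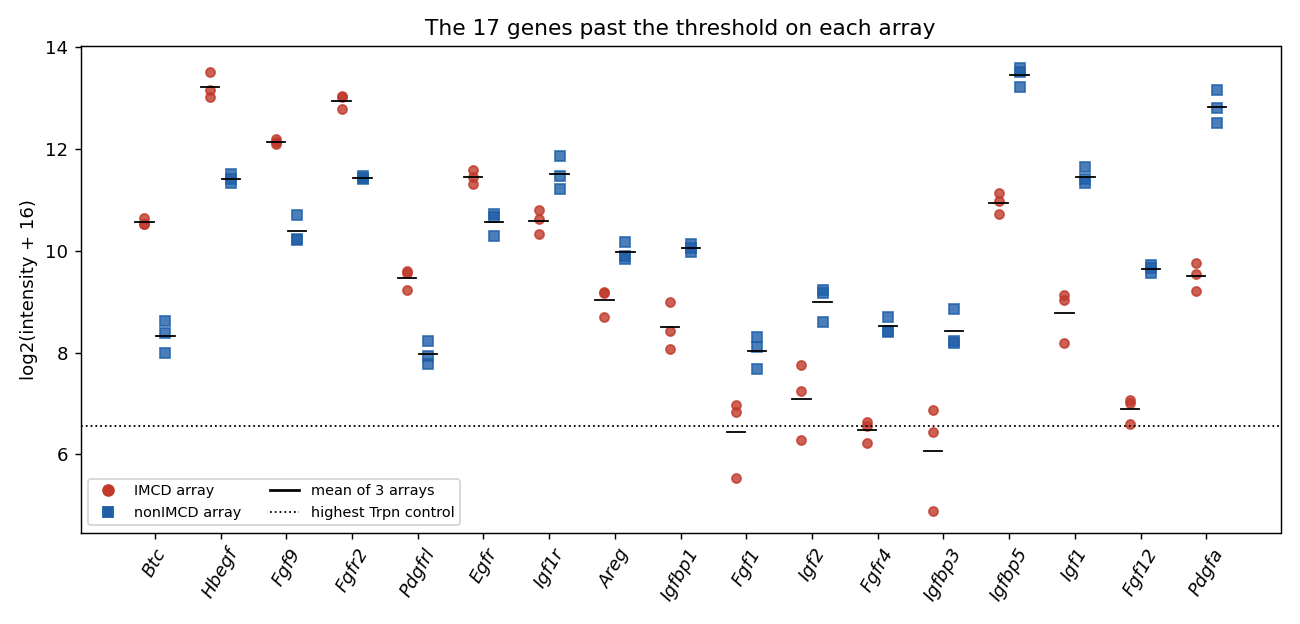
Intensity on each array (log2(intensity + 16), vertical axis) for the 17 genes past the threshold, ordered by their difference; circles are the 3 IMCD arrays, squares the 3 nonIMCD arrays, short lines their means, and the dotted line the highest Trpn control value (78.4). For each gene the circles and squares occupy separate ranges, and the IMCD values of Fgf1, Fgfr4 and Igfbp3 fall around the dotted line.

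Among 18 secreted FGF ligands, Fgf9 was higher in IMCD, Fgf1 was lower and 16 did not pass. Fgf9, a ligand known from kidney development, had 4354, 4461 and 4637 in IMCD and 1164, 1186 and 1643 in nonIMCD. The IMCD arrays were tight and lay far above the others, with a 3.37-fold ratio of means (1.76 ± 0.17, SE, adjusted p = 0.00178). Its second probe set read 2635, 2265 and 2632 against 596, 520 and 670, a difference of 2.05 ± 0.15 (SE, adjusted p = 0.000755). Fgf1, acidic FGF, binds every FGF receptor. It had 30.1, 109 and 97.2 in IMCD and 188, 261 and 299 in nonIMCD. The groups did not overlap (-1.59 ± 0.42, SE, adjusted p = 0.0463), with an IMCD mean of 78.8 that was close to the highest Trpn value.

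Of the 17 called growth factor genes, Fgf1 lost its call in the most alternatives. It was lost without IMCD replicate 2 (-1.85, adjusted p = 0.0551) or 3 (-1.78, adjusted p = 0.0738) and without nonIMCD replicate 1 (-1.77, adjusted p = 0.0799), 2 (-1.55, adjusted p = 0.122) or 3 (-1.45, adjusted p = 0.12). It was also lost under median centring (-1.30, adjusted p = 0.0697), after quantile normalization (-1.33, adjusted p = 0.0703), with a pseudocount of 1 (-1.82, adjusted p = 0.0717) and as the mean of its probe sets (-1.18, adjusted p = 0.0552). Its 2 dimmer probe sets gave -1.47 and -0.49 with overlapping arrays (adjusted p = 0.186 and 0.383). Fgf18 had 554, 553 and 259 in IMCD and 256, 402 and 339 in nonIMCD, with overlapping arrays (0.38 ± 0.34, SE, adjusted p = 0.485). The other 15 secreted ligands, among them Fgf2, the stromal ligands Fgf7 and Fgf10, and the hormones Fgf19, Fgf21 and Fgf23, were under the median intensity on every array. Fgf2 read 63.4, 107 and 138 in IMCD and 133, 135 and 17.6 in nonIMCD, and Fgf7 read 65.0, 66.2 and 21.0 against 77.4, 95.7 and 66.7, not far from the highest Trpn value.

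Fgf11 to Fgf14 encode FGF homologous factors, which stay in the cell and bind voltage-gated sodium channels instead of acting as classical ligands. Fgf12 was lower in IMCD and the other 3 did not pass. It had 118, 80.7 and 113 in IMCD and 828, 735 and 798 in nonIMCD. The gap between the groups was wide next to their spread, with a 7.57-fold ratio of means (-2.76 ± 0.17, SE, adjusted p = 0.000489). A second Fgf12 probe set agreed in direction (-3.58 ± 0.49, SE, adjusted p = 0.00503), although its IMCD mean of 43.3 was in the Trpn range and leaves the size uncertain, and the dimmest gave -1.11 ± 0.36 (SE, adjusted p = 0.085). Fgf13 had 177, 254 and 200 in IMCD and 136, 67.7 and 195 in nonIMCD, with overlap (0.69 ± 0.36, SE, adjusted p = 0.236).

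The 4 FGF receptor genes divided in direction: Fgfr2 was higher in IMCD, Fgfr4 was lower, and Fgfr1 and Fgfr3 did not pass. Fgfr2, whose epithelial isoform is the receptor through which stromal FGFs act on the ureteric bud, read 7029, 8262 and 8356 in IMCD and 2700, 2746 and 2814 in nonIMCD. Every IMCD array was well above the narrow nonIMCD range, a 2.86-fold ratio of means (1.51 ± 0.13, SE, adjusted p = 0.00117). Of its 4 dimmer probe sets, 2 were higher as well (1.74 ± 0.24, adjusted p = 0.0054, and 3.24 ± 0.25, adjusted p = 0.000855). The others gave 2.26 ± 0.63 (adjusted p = 0.0522) and, with overlapping arrays, 0.05 ± 0.80 (adjusted p = 0.974). The probe set with the difference of 3.24 read 355, 305 and 266 in IMCD and only 23.9, 25.4 and 8.39 in nonIMCD, where it was within the Trpn range. Which Fgfr2 transcripts each probe set detects was not analysed here.

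Fgfr4, a receptor known for bile acid control by FGF19 in liver, read 77.6, 58.5 and 84.1 in IMCD and 329, 402 and 321 in nonIMCD. The groups were clearly apart (-2.04 ± 0.17, SE, adjusted p = 0.00114), and the IMCD mean of 73.4 was under the highest Trpn value. Fgfr1, the broadly expressed receptor, had 2719, 2549 and 2334 in IMCD and 2725, 2831 and 2246 in nonIMCD. These ranges nearly coincided, with a difference of -0.03 ± 0.15 (SE, adjusted p = 0.901). Fgfr3 had 583, 825 and 875 in IMCD and 481, 384 and 484 in nonIMCD. Its arrays did not overlap, and the difference of 0.72 ± 0.20 narrowly failed (SE, adjusted p = 0.0542). Fgfr3 passed under median centring (1.01, adjusted p = 0.0162), after quantile normalization (0.94, adjusted p = 0.0243) and without IMCD replicate 1 (0.90, adjusted p = 0.0359), and its dimmer probe set gave 0.11 ± 0.25 (SE, adjusted p = 0.80).

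**Figure D3:**
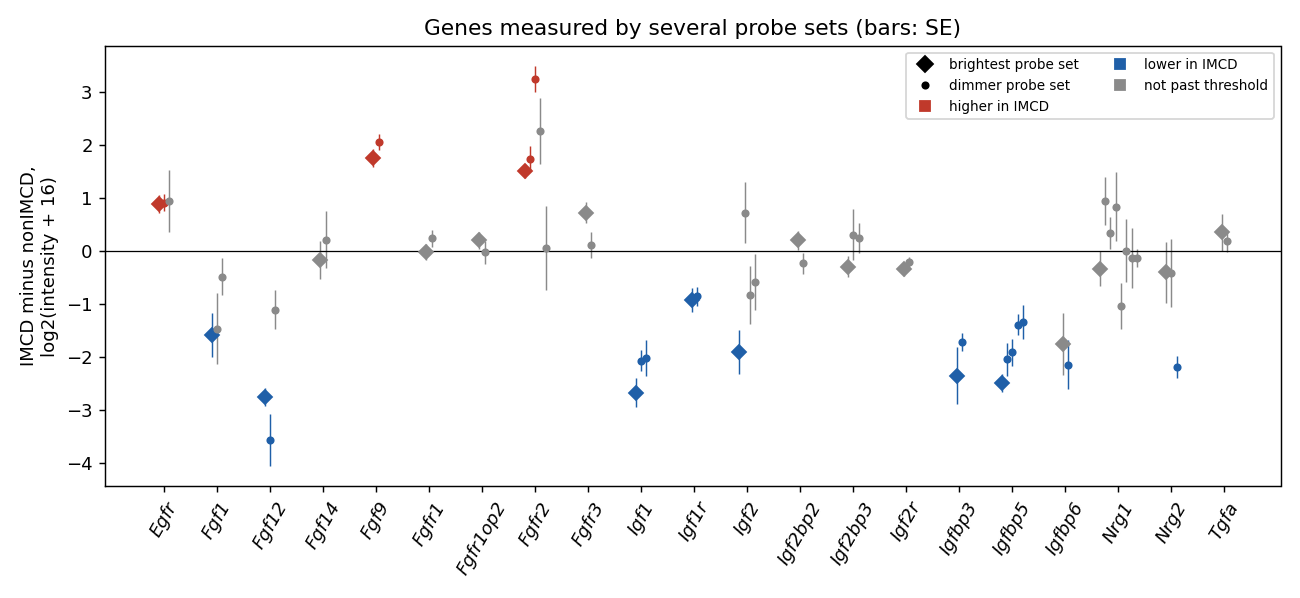
Difference between the fractions (IMCD minus nonIMCD, log2(intensity + 16), vertical axis) for every probe set of the 21 genes with more than 1; diamonds are the brightest probe set of a gene, circles the dimmer ones, bars are SE, and colour gives the call. Among these genes 0 had probe sets called in opposite directions, and the 5 probe sets of Igfbp5 were all lower in IMCD.

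Platelet-derived growth factor A showed the largest difference of the 63 genes. Pdgfa, a ligand that signals to interstitial and mural cells through Pdgfra, read 575, 733 and 848 in IMCD and 7130, 9140 and 5769 in nonIMCD. Even the dimmest nonIMCD array was several times as bright as the brightest IMCD array, and the means differed 10.2-fold (-3.32 ± 0.23, SE, adjusted p = 0.000651). Its receptor gene Pdgfra was dim, with 62.3, 87.2 and 67.9 in IMCD and 106, 278 and 328 in nonIMCD. The arrays did not overlap, but the spread in nonIMCD was wide (-1.40 ± 0.41, SE, adjusted p = 0.0627). It passed without nonIMCD replicate 1 (-1.86, adjusted p = 0.00851), with a pseudocount of 64 (-1.06, adjusted p = 0.0462) and with an intensity trend (adjusted p = 0.0349). Pdgfc and Pdgfd, the other ligands measured, were under the array median with overlapping arrays (0.16 ± 0.34 and -0.06 ± 0.55, SE).

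Pdgfrl encodes a secreted protein that resembles the outer part of a PDGF receptor and lacks a kinase. In contrast to Pdgfa it was higher in IMCD, with 742, 587 and 764 against 203, 284 and 227. The groups were well apart, with a 2.93-fold ratio of means (1.49 ± 0.18, SE, adjusted p = 0.00357).

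The upstream windows of Fgfr2 and Pdgfa are shown as those of a receptor higher in IMCD and of the ligand with the largest negative difference. They are chr1:194280915-194281164 (minus strand) and chr12:20759116-20759365 (plus strand) of GRCr8, with the same motifs in capitals.
Fgfr2: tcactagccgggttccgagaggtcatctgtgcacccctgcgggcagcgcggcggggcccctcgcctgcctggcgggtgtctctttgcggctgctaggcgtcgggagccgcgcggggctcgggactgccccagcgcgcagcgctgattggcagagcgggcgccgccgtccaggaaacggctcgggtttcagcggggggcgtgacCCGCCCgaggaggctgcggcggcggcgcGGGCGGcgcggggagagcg
Pdgfa: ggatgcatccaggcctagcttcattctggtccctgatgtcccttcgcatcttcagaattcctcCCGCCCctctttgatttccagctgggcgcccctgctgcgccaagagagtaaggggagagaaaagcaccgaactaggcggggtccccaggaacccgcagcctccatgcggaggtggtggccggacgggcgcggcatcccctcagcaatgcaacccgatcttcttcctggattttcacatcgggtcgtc
The Fgfr2 window held GC boxes near its start and had a GC content of 76.8%, and the Pdgfa window held a GC box farther upstream and had 60.8%. RefSeq windows were matched for 52 of the 63 genes, giving 55 windows with a median GC content of 62.4%, against 51.2% for all windows. GC boxes were in 54.5% of the windows of these genes and in 30.5% of all windows. They were in windows of 3 higher genes (Btc, Egfr and Fgfr2) and of 6 lower genes (Areg, Fgf12, Fgfr4, Igf1r, Igf2 and Pdgfa). AP-1 and GATA motifs were in 3.6% of these windows each, against 6.3% and 10.3% of all, and in 0 windows of called genes.

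The IGF system was the family with the most genes lower in IMCD. Both ligands, 1 of 2 receptors and 3 of 8 genes for binding proteins or their partner Igfals were lower there, and 0 of these 12 genes were higher. Over all named genes 15.7% were lower. Igf2, Igf1r and Igfbp3 lost their calls in several alternatives, and all of them did without IMCD replicate 2 or without nonIMCD replicate 2. Igfbp6 gained a call without IMCD replicate 2. Igf1, insulin-like growth factor 1, had 276, 505 and 542 in IMCD and 2685, 2557 and 3163 in nonIMCD. The groups were far apart, with a 6.35-fold ratio of means (-2.68 ± 0.28, SE, adjusted p = 0.00215), and IMCD replicate 1 was the lowest array. The dimmer Igf1 probe sets gave -2.08 ± 0.20 (adjusted p = 0.00165) and -2.02 ± 0.34 (adjusted p = 0.0109). Igf2, the ligand best known from fetal growth, read 61.5, 135 and 199 in IMCD and 371, 581 and 562 in nonIMCD, also without overlap. The difference was -1.91 ± 0.41 (SE, adjusted p = 0.0237).

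Igf2 did not pass without IMCD replicate 2 (-1.99, adjusted p = 0.0607), nonIMCD replicate 2 (-1.80, adjusted p = 0.0781) or nonIMCD replicate 3 (-1.82, adjusted p = 0.0699), and as the mean of its probe sets (-0.65, adjusted p = 0.125). Its 3 dimmer probe sets overlapped between the fractions. Igf1r, the receptor tyrosine kinase for both ligands, had 1555, 1755 and 1269 in IMCD and 2813, 3688 and 2360 in nonIMCD. All IMCD arrays were below all nonIMCD arrays, with a ratio of means of 1.94 (-0.93 ± 0.22, SE, adjusted p = 0.0315). A second probe set gave -0.86 ± 0.18 (SE, adjusted p = 0.0209).

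The brightest Igf1r probe set did not pass without IMCD replicate 1 (-0.95, adjusted p = 0.0865), 2 (-1.04, adjusted p = 0.0546) or 3 (-0.81, adjusted p = 0.0893), without nonIMCD replicate 1 (-0.96, adjusted p = 0.0841) or 2 (-0.76, adjusted p = 0.0729), and under median centring (-0.64, adjusted p = 0.0864). Igf2r, which takes Igf2 to lysosomes and sorts lysosomal enzymes, had 4529, 4694 and 4681 in IMCD and 5642, 5799 and 6258 in nonIMCD. The arrays were tight and did not overlap, but the small difference of -0.35 ± 0.12 did not pass (SE, adjusted p = 0.0879). It passed after quantile normalization (-0.46, adjusted p = 0.0394) and with an intensity trend (adjusted p = 0.00848).

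Binding proteins hold IGFs in blood and tissue and differ in where they are made. Igfbp5 had 1992, 1666 and 2229 in IMCD and 11716, 12288 and 9536 in nonIMCD. The groups were widely separated, with a 5.70-fold ratio of means (-2.50 ± 0.17, SE, adjusted p = 0.000636), and the 4 dimmer probe sets were also lower, with differences of -1.35 to -2.05. Igfbp1, an insulin-suppressed binding protein best known from liver, read 327, 252 and 496 in IMCD and 1049, 1101 and 995 in nonIMCD. The nonIMCD arrays were tight and above all IMCD arrays (-1.56 ± 0.25, SE, adjusted p = 0.0095). Igfbp3, the main carrier in blood, had 13.8, 70.5 and 101 in IMCD and 284, 275 and 450 in nonIMCD. The groups did not overlap (-2.36 ± 0.54, SE, adjusted p = 0.029), and the IMCD mean of 61.7 was within the Trpn range.

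The brightest Igfbp3 probe set did not pass without IMCD replicate 2 (-2.54, adjusted p = 0.0604), nonIMCD replicate 1 (-2.46, adjusted p = 0.0746), nonIMCD replicate 2 (-2.48, adjusted p = 0.0723) or nonIMCD replicate 3 (-2.14, adjusted p = 0.0826), and with a pseudocount of 1 (-2.79, adjusted p = 0.0599). Its second probe set gave -1.72 ± 0.17 (SE, adjusted p = 0.0019), also with IMCD signal in the Trpn range. Igfbp6, which prefers Igf2, had 216, 37.0 and 199 in IMCD and 418, 539 and 408 in nonIMCD. IMCD replicate 2 stood apart at the low end, and the difference of -1.76 ± 0.59 did not pass (SE, adjusted p = 0.0893). Igfbp6 passed without that array (-1.07, adjusted p = 0.0257), and its dimmer probe set, with IMCD signal in the Trpn range, was lower (-2.15 ± 0.46, SE, adjusted p = 0.0235). It also passed as the mean of its probe sets (-1.96, adjusted p = 0.000749), with a pseudocount of 64 (-1.40, adjusted p = 0.0379) and with an intensity trend (adjusted p = 0.023). With a pseudocount of 1 (adjusted p = 0.125) or median centring (adjusted p = 0.128) it did not.

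Igfbp2, Igfbp4, Igfbp7 and Igfals did not pass. Igfbp2 had 380, 503 and 1137 in IMCD and 366, 374 and 475 in nonIMCD, where the high IMCD value is that of replicate 3 (0.57 ± 0.41, SE, adjusted p = 0.384). Igfbp4 had 206, 253 and 307 in IMCD and 238, 265 and 547 in nonIMCD, with overlap (-0.35 ± 0.34, SE, adjusted p = 0.517). Igfbp7, which binds IGFs weakly and is abundant in vessel walls, had 49407, 56123 and 60310 in IMCD and 54883, 65320 and 73306 in nonIMCD. These overlapping values were among the brightest, since the highest reading of each array was 70016 to 111657 (-0.22 ± 0.16, SE, adjusted p = 0.402). Igfals, a liver protein that stabilises circulating complexes, read 7.73 to 20.0, within the Trpn range.

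Of the IGF binding protein genes, 4 lie in close pairs in the rat genome. In RefSeq (GRCr8) the start sites of Igfbp1 and Igfbp3 are 17 kb apart on chromosome 14, and both genes were lower in IMCD. Those of Igfbp2 and Igfbp5 are 49 kb apart on chromosome 9, where Igfbp5 was lower (-2.50) and Igfbp2 did not pass (0.57). The difference between the members of a pair was not tested.

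Hepatocyte growth factor and its receptor gave no call. Hgf, a stromal ligand, read 37.2, 82.2 and 22.7 in IMCD and 61.1, 19.9 and 44.0 in nonIMCD, values of the size of the Trpn controls. Met, its receptor on epithelial cells, had 1051, 748 and 820 in IMCD and 342, 740 and 514 in nonIMCD. The IMCD arrays lay above the nonIMCD arrays, with almost no gap between the lowest and the highest, and the difference of 0.75 ± 0.30 did not pass (SE, adjusted p = 0.141). It passed with an intensity trend (adjusted p = 0.0475) and with dim probe sets left out (adjusted p = 0.043).

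Apart from Pdgfrl, 6 genes matched by symbol are neither ligands, receptors nor binding proteins of these families. The RNA-binding proteins Igf2bp1, Igf2bp2 and Igf2bp3 had differences of 0.45 ± 0.14, 0.20 ± 0.18 and -0.30 ± 0.20 (SE, adjusted p = 0.072, 0.497 and 0.332). Igf2bp2 had 1568, 1518 and 1818 in IMCD and 1279, 1267 and 1769 in nonIMCD, and Igf2bp3 had 323, 240 and 324 against 445, 354 and 310, both with overlap. Igf2bp1 did not overlap (254, 249 and 211 against 182, 153 and 174) and passed under median centring (0.74, adjusted p = 0.0146) and after quantile normalization (0.74, adjusted p = 0.0153). Fgfr1op2, named for a fusion partner of Fgfr1, had 1940, 2063 and 2063 in IMCD and 1597, 1607 and 2134 in nonIMCD (0.20 ± 0.16, SE, adjusted p = 0.438). Igfbpl1 and Igflr1 were under the array median.

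In all, 31 genes that did not pass were under the median intensity on every array, with intensities of 3.5 to 328 and differences of -1.50 to 0.84. Of these, 15 had means at or under the highest Trpn value in both fractions. Their SE ran from 0.14 to 0.94, so many differences of the size called above would not have been detectable for them.

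Other genes of the pathways were taken from 7 lists with 115 genes, of which 98 were measured; the rest were not analysed here. Of the 98 genes 15 were higher, 20 lower and 63 did not pass, or 35.7% called against a background of 25.8%, and the median difference was 0.00. The lists were fixed with earlier results of these data known, so this share does not test for an excess. The balance depended on scaling: higher calls were 42.9% of calls as deposited, 65.8% (25 higher, 13 lower) under median centring and 50.0% (14 higher, 14 lower) after quantile normalization. Lower calls fell to 13 without IMCD replicate 1 or nonIMCD replicate 1. With the replicate number as a block, though not known to mark pairs, 14 were higher and 11 lower.

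Co-receptors and heparan sulfate carriers of FGFs had 6 genes lower and 1 higher in IMCD out of 14, and the other 7 did not pass (median -0.29). In this list 50.0% were called and 42.9% were lower, against 25.8% and 15.7% of all named genes. Like the other lists it was fixed with earlier results known, so these shares do not test for an excess. The glypican Gpc3, a cell surface proteoglycan, averaged 234 ± 59.7 over IMCD and 4930 ± 605 over nonIMCD arrays (SD, n = 3) (-4.33 ± 0.22, SE, adjusted p = 0.000333). Gpc4 had 1081 ± 22.4 and 4099 ± 383 (-1.90, adjusted p = 0.000577), and the FGF receptor-binding membrane protein Flrt1 had 289 ± 13.8 and 1195 ± 257 (-1.97, adjusted p = 0.00154). The syndecan Sdc2 was lower by a smaller amount (-1.11, adjusted p = 0.00239).

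Genes for processing of ligands and receptors gave 2 higher, 2 lower and 13 not passing of 17 (23.5% called, median -0.15). Plau, the urokinase protease that can activate Hgf, averaged 4537 ± 276 over IMCD and 22944 ± 5777 over nonIMCD arrays (-2.31, adjusted p = 0.00127). F3, also in this list although it encodes tissue factor, a coagulation cofactor and not a protease, was higher (1.87, adjusted p = 0.0107). Hpn, a membrane serine protease, was lower (-0.97, adjusted p = 0.0311), and Furin, which cleaves many precursor proteins, was higher (0.84, adjusted p = 0.0302). Furin did not pass without IMCD replicate 1 (0.79, adjusted p = 0.0977), 2 (0.84, adjusted p = 0.0856) or 3 (0.91, adjusted p = 0.0647) and without nonIMCD replicate 1 (0.86, adjusted p = 0.0816) or 3 (0.67, adjusted p = 0.0523). Hpn did not pass without IMCD replicate 1 (-1.03, adjusted p = 0.0764), without nonIMCD replicate 1 (-0.92, adjusted p = 0.096), 2 (-0.95, adjusted p = 0.0894) or 3 (-1.04, adjusted p = 0.0605), under median centring (-0.68, adjusted p = 0.0826) and after quantile normalization (-0.72, adjusted p = 0.0773).

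In the insulin receptor branch 2 of 6 genes were higher, 1 was lower and 3 did not pass (median 0.46). The share called was 50.0%, against 25.8% of all named genes, in a list fixed with earlier results known. Irs2, the docking protein of the insulin and IGF1 receptors, averaged 3898 ± 814 over IMCD and 1297 ± 226 over nonIMCD arrays (1.57 ± 0.22, SE, adjusted p = 0.00543). The adaptor Grb14, an inhibitor of the insulin receptor, was higher (1.33, adjusted p = 0.0114), and the related Grb10 was lower (-1.16, adjusted p = 0.0172). Grb10 did not pass without IMCD replicate 2 (-1.07, adjusted p = 0.0577) or 3 (-1.19, adjusted p = 0.0508), without nonIMCD replicate 1 (-1.15, adjusted p = 0.0596), after quantile normalization (-0.86, adjusted p = 0.0544) and as the mean of its probe sets (-0.14, adjusted p = 0.516).

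Of 22 adaptors and phosphatases 1 was higher, 2 were lower and 19 did not pass (13.6% called, median 0.06). The docking protein Gab1, which binds Met and Egfr complexes, was higher (0.85, adjusted p = 0.00515), and the phospholipases Plcg2, mainly known from blood cells, and Plcg1 were lower (-2.45, adjusted p = 0.00121, and -0.91, adjusted p = 0.0187). The IMCD mean of Plcg2, 56.9, was in the Trpn range. Plcg1 did not pass without IMCD replicate 1 (-0.92, adjusted p = 0.0621) or 3 (-0.84, adjusted p = 0.0611) and under median centring (-0.63, adjusted p = 0.0516). Of 7 genes of the Ras to ERK cascade 0 were higher, 1 was lower and 6 did not pass (14.3% called, median 0.24). The lower gene was Rasa1, a Ras GTPase activating protein (-0.54, adjusted p = 0.0275), whose call was lost without any of 5 arrays (IMCD replicates 1, 2 and 3 and nonIMCD replicates 1 and 2, -0.48 to -0.55) and under median centring (-0.25, adjusted p = 0.207).

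Of 11 genes of the PI3K to AKT cascade 1 was higher, 3 were lower and 7 did not pass (median -0.10). The share called was 36.4%, against 25.8% of all named genes. The regulatory subunit Pik3r3 was higher (1.22, adjusted p = 0.00868). The leukocyte catalytic subunit Pik3cd (-1.56, adjusted p = 0.0131) and the transcription factor Foxo1 (-1.02, adjusted p = 0.0107) were lower, the latter not as the mean of its probe sets (-0.92, adjusted p = 0.0775). Pik3ca, the widely expressed catalytic subunit, was lower by a small amount (-0.58, adjusted p = 0.0468), and its call was lost without any 1 of 5 arrays (all but nonIMCD replicate 3, -0.46 to -0.60), under both other scalings, with a pseudocount of 1 and as the mean of its probe sets.

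**Figure D4:**
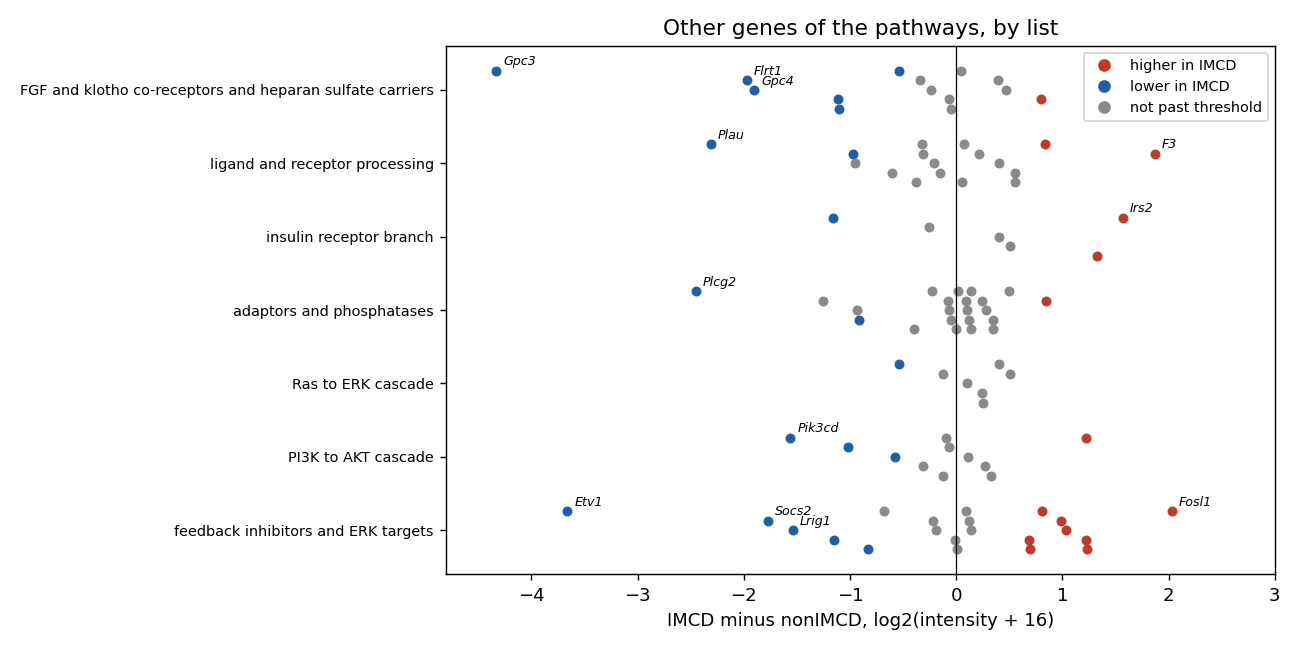
Difference between the fractions (IMCD minus nonIMCD, log2(intensity + 16), horizontal axis) for 98 other genes of the pathways in 7 lists; each point is a gene, its colour gives the call, and the names mark called genes with a difference of at least 1.5 in size. The list of feedback inhibitors and ERK targets has called genes on both sides, from Etv1 at -3.66 to Fosl1 at 2.03.

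Feedback inhibitors and targets of ERK were called on both sides. Of 21 genes 8 were higher and 5 lower, and the remaining 8 missed the threshold (61.9% called, median 0.09). Over all named genes 25.8% were called. The list was fixed with earlier results of these data known, so its share does not test for an excess. Fosl1, an AP-1 subunit induced through ERK, averaged 4554 ± 546 over IMCD and 1102 ± 55.9 over nonIMCD arrays (2.03 ± 0.14, SE, adjusted p = 0.00063). The ETS factor Etv1, which is also a lineage factor in several cell types, had 110 ± 25.5 and 1582 ± 298 (-3.66 ± 0.22, SE, adjusted p = 0.000454). Lrig1, a membrane inhibitor of ERBB receptors, was lower (-1.54, adjusted p = 0.00571), and the cytokine signaling inhibitor Socs2 was lower with IMCD signal in the Trpn range (-1.77, adjusted p = 0.0466). Socs2 did not pass without IMCD replicate 1 (-1.50, adjusted p = 0.129) or 2 (-1.55, adjusted p = 0.126), without nonIMCD replicate 1 (-2.01, adjusted p = 0.0721), 2 (-1.55, adjusted p = 0.13) or 3 (-1.76, adjusted p = 0.109), with a pseudocount of 1 (-2.45, adjusted p = 0.0684) and under both other scalings.

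The remaining called genes of this list, named after their values were seen, went in both directions. Dusp5, Spry1, Spry2, Spred3, Socs3, Errfi1 and Phlda1 were higher, and Lrig3 and Spry4 were lower. The difference of Phlda1 was 0.99 (adjusted p = 0.00654). Genes of the list that did not pass were Dusp4 (0.01), Dusp6 (0.09), Etv4 (-0.68), Etv5 (0.14), Egr1 (-0.01), Fos (-0.19), Myc (-0.22) and Ier3 (0.12). Dusp5, a phosphatase of nuclear ERK, read 7863, 6010 and 6476 in IMCD and 2937, 2797 and 2865 in nonIMCD (1.23 ± 0.15, SE, adjusted p = 0.00321). Spry2, an inhibitor of receptor signaling to ERK, read 2702, 2255 and 2371 against 1422, 1243 and 940 (1.03 ± 0.19, SE, adjusted p = 0.0148), and without IMCD replicate 1 its call was lost (0.96, adjusted p = 0.0554). Errfi1, which binds and inhibits Egfr, read 25323, 22964 and 23044 against 14312, 13092 and 13244 (0.81 ± 0.12, SE, adjusted p = 0.00693). In Dusp5, Spry2 and Errfi1 all IMCD arrays were above all nonIMCD arrays. Lrig3, a relative of Lrig1, read 655, 871 and 881 against 1596, 1846 and 1910 and was lower (-1.15 ± 0.17, SE, adjusted p = 0.007), but not as the mean of its probe sets (-0.79, adjusted p = 0.0748). Spry4, of the same family as Spry2, read 339, 326 and 438 against 776, 632 and 592 (-0.83 ± 0.18, SE, adjusted p = 0.0241). It did not pass under either other scaling (-0.55 and -0.59) or without IMCD replicate 1 or 2 or nonIMCD replicate 1 or 2 (-0.72 to -0.87). Spry1, another member, was higher (0.70, adjusted p = 0.0114). Socs3 (0.69, adjusted p = 0.0361) and Spred3 (1.22, adjusted p = 0.0423) were higher too. Socs3 did not pass after quantile normalization (0.62) or without IMCD replicate 1 or 2 or nonIMCD replicate 1 or 3 (0.60 to 0.68). Spred3 did not pass without any 1 of the IMCD arrays or nonIMCD replicate 1 (1.17 to 1.29), with a pseudocount of 1 (1.31) or as the mean of its probe sets (0.31). The list of 12 genes of the dissociation response holds genes induced early after tissue digestion, such as Fos, Atf3 and Dusp1. It shares Fos, Egr1 and Ier3 with the list above, so the lists are not independent. By limma it gave 0 calls and 1 gene at an unadjusted p under 0.05, with a median difference of 0.06. Its summed intensities were 284698 to 341175 in IMCD and 292097 to 339830 in nonIMCD.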

How the data were processed

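The authors deposited 1 intensity per probe set and array, without log. From the values, each array had been scaled to the same mean after 2% was trimmed at each end (1000.3 to 1000.4), so a difference is relative to that average, and the software that did so is not known here. The 57 control probe sets were left out and 31042 were tested as log2(intensity + 16) with limma 3.58.1 (R 4.3.3; lmFit, then eBayes; two-sided, IMCD minus nonIMCD, 3 arrays each, no covariate, no filter, Benjamini-Hochberg threshold 0.05). The code of the fit was checked on simulated independent arrays with known differences. That check does not cover pairing, scaling or dim signal. Gene names came from the platform annotation, checked by identifier against RefSeq (GRCr8): 20826 probe sets had 1 symbol, 436 had several and 9780 had none, and probe sets with several were not used for a gene. The number of arrays limits the precision.

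Genes past the threshold, and others brighter than the median of all probe sets on any array, are given by array; other genes are given by range or count, with some dim ones by array as examples chosen after their values were seen. Up to 4 called genes with the largest difference were named per pathway list. The members and lists were chosen with earlier results of these data known. Alternatives were another pseudocount (1 or 64), median centring, quantile normalization, dim probe sets left out, an intensity trend, the replicate number as a block, the mean of a gene's probe sets, and each array left out in turn.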

Additional observations from a re-analysis of the deposited data

How the results depend on the processing

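The alternatives were followed for 95 genes. Phlda1 and the genes of its list that did not pass were not among them. None of the 95 genes changed direction while called under any of the 14 alternatives. Of 1286 values, 1159 kept their side of the threshold, 100 lost a call and 27 gained one. Of the 17 called growth factor genes, 11 kept their call in every alternative in which they were measured (Btc, Fgf12, Fgf9, Fgfr2, Fgfr4, Hbegf, Igf1, Igfbp1, Igfbp5, Pdgfa and Pdgfrl), while Fgf12 and Fgfr4 had no value with dim probe sets left out. The count of lower genes was 7 instead of 11 with dim probe sets left out, where 25 of 63 genes remained, and 6 to 11 without 1 array. The lowest count was that without nonIMCD replicate 2. The higher count stayed at 5 to 6 without 1 array. The median difference of the 63 genes, -0.17, was -0.11 with a pseudocount of 64, 0.11 under median centring, -0.02 after quantile normalization, 0.20 with dim probe sets left out, -0.06 as means of probe sets and -0.08 to -0.29 without 1 array. Pathway genes were 25 higher and 13 lower under median centring, 10 to 14 higher and 13 to 18 lower without 1 array, and 14 higher and 11 lower with the replicate number as a block. Of the pathway genes followed, that block ended the calls of Foxo1, Pik3cd, Pik3ca, Rasa1, Grb10, Hpn, Socs2, Spry4 and Spred3 (adjusted p = 0.0514 to 0.0862). With that block the counts of growth factor genes were 6 higher and 11 lower, the same genes as without it. Arrays of the same number deviated together only weakly (r = 0.0401, 0.035 and 0.0605 over probe sets, each the highest for its array), so the numbers were not taken as pairs. The cause of these changes was not tested, except that leaving out arrays or probe sets leaves less to test. Signal near the Trpn controls limits the dim genes.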
